A study of Homo sapiens with 59 samples.

Results

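Messenger RNA was compared between neural stem cells that had received the second day of CHIR99021 and cells that had received only the first, at the same hours of each day. Day 2 comprises the exposures of 36, 42 and 48 h, with 8 libraries, and day 1 those of 12, 18 and 24 h, with 9 libraries, so that each time point stands against the one 24 h before it. These are 17 of the 59 libraries of a time course. They were taken by their labelled hours alone, and no measured value entered the choice.

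The cells of all 6 time points derive from the human embryonic stem cell line WA09, also called H9. The cells first received FGF8b at 200 ng/mL, then medium with CHIR99021 for the labelled hours on an automated culture platform, then neural stem cell medium with retinoic acid, renewed every day for 4 days, and were lysed. RNA was therefore read 4 days after CHIR99021 ended, not at its end. A longer exposure also meant a longer culture, and cells without CHIR99021 were not analysed here. The labels give no clock times. The replicates are labelled A1, A2 and B1, and 48 h has only A1 and A2, since the submitters dropped its B1 library for an excess of genes without counts. The labels do not tell whether replicates came from separate cultures, and the spread behind each p-value may therefore be technical.

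CHIR99021 inhibits GSK3 and so stabilises beta-catenin, the effector of canonical WNT signalling. In the embryo, WNT and FGF signals keep axial progenitors of the tail bud cycling while their HOX genes open in order along each cluster, from low group numbers, which mark the hindbrain, to higher ones, which mark progressively more posterior spinal cord. Retinoic acid from the somites ends that state and starts neural differentiation, and the HOX genes active at that moment are then kept in the neural progenitors.

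Values are in TPM, a relative transcript abundance corrected for gene length and scaled to the same total in every library, from which no read depth can be told. Between 9924 and 12745 genes, with a median of 12578, reached 1 TPM in the day 2 libraries, against 11893 to 12857, with a median of 12668, in the day 1 libraries. The lowest of these, 9924, belongs to the 42 h B1 library. Its log2(TPM + 1) values correlated with those of the other 16 libraries at 0.710 to 0.730, whereas all other pairs correlated at 0.886 to 0.960. The library stands apart from the rest, so many counts below are also given without it. Some were made only with it in the data. These are the counts with a minimum log2 difference, from single hour pairs, of separate time-point means and of non-overlapping libraries. The labelled cell type was checked on its markers. Day 2 libraries held CDH2 at 955 to 1824 TPM, PAX6 at 142 to 236 TPM and SOX2 at 72.1 to 148 TPM, against 1534 to 1965 TPM, 181 to 248 TPM and 47.4 to 164 TPM in day 1 libraries. POU5F1, a pluripotency factor, had medians of 14.0 TPM in day 2 and 12.2 TPM in day 1. None of these 4 genes passed the test between the days, but without 42 h B1 PAX6 did (log2 difference -0.31, adjusted p = 0.0492). SOX1, another neural progenitor factor, had a log2 difference of 1.12 with an adjusted p of 0.103, and of 1.42 with an adjusted p of 0.0126 without 42 h B1. The other markers set for undifferentiated cells were not all low. LIN28A had 575 to 1073 TPM in day 2 and 1181 to 1500 TPM in day 1. DPPA4 had 174 to 524 TPM and 240 to 321 TPM. NANOG had 0 to 58.0 TPM in day 2, highest in 42 h B1, and 0 to 3.77 TPM in day 1.

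Each gene's difference below is the mean of the 3 differences between matched hours (36 minus 12, 42 minus 18 and 48 minus 24 h) on the log2(TPM + 1) scale. That scale understates the change of genes with few TPM. It was tested with limma over all 15305 genes that had at least 1 TPM in at least 3 of the 59 libraries, and a gene is said to have risen or fallen where its Benjamini-Hochberg adjusted p was under 0.05. By this rule 99 genes (0.647%) were higher and 297 genes (1.94%) lower in day 2, together 396 (2.59%). Without 42 h B1 the counts were 107 and 276, and 312 of the 396 genes were called again. The share of higher genes among those called, 25%, was 37.6% (178 higher, 296 lower) after quantile normalization and 38.8% (159 higher, 251 lower) after median-ratio scaling. With a log2 difference of at least 1 there were 51 higher genes (0.333%) and 166 lower genes (1.08%). The median difference of all genes was -0.089. Taken alone, the pair of 36 and 12 h gave 115 calls (0.751%), that of 42 and 18 h 277 (1.81%) and that of 48 and 24 h 157 (1.03%). The 3 time-point means of day 2 all lay above those of day 1 for 554 genes (3.62%) and below them for 1132 genes (7.4%). Leaving out 42 h A1 gave 616 calls, and leaving out 42 h A2 gave 596.

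**Figure D1:**
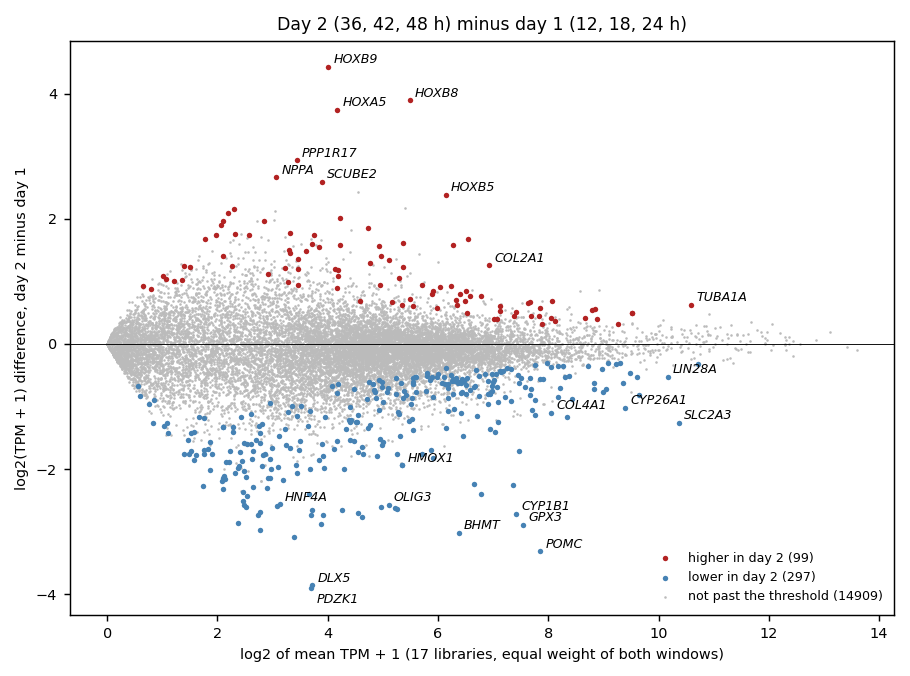
Each point is 1 of the 15305 genes, with its mean level on the x axis (log2 of mean TPM + 1) and its log2(TPM + 1) difference, day 2 minus day 1, on the y axis; red genes are higher in day 2 (99), blue genes lower (297) and grey genes did not pass the threshold. The HOX genes HOXB9, HOXB8 and HOXA5 have the highest differences, between 3.74 and 4.43, and PDZK1 and DLX5 the lowest, at -3.91 and -3.86.

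The largest increases were in HOX genes of the neck and trunk. Of the 11 tested HOX genes of groups 5 to 9, 5 rose and none fell, with a median log2 difference of 1.23. The same 5 genes rose without 42 h B1 and under both scalings. HOXB9, a marker of thoracic spinal cord, had a lowest value of 4.16, a median of 27.6 and a highest of 66.2 TPM in day 2, against 0, 0 and 1.85 TPM in day 1. The libraries of the days did not overlap, and all 6 libraries of 12 and 18 h were listed at 0. The log2 difference was 4.43 (SE 0.26, adjusted p = 3.87e-17). HOXB8, its neighbour in the cluster, had 24.9, 87.1 and 138 TPM in day 2 (lowest, median and highest), against 1.18, 4.10 and 15.1 TPM in day 1, again without overlap (log2 difference 3.89, SE 0.22, adjusted p = 2.46e-17). HOXB5 reached 79.9 to 135 TPM in day 2, with a median of 115 TPM, against 7.15 to 67.0 TPM, with a median of 14.9 TPM, in day 1. Its groups did not overlap either, although within day 1 its 24 h mean, 52.1 TPM, already stood above its 12 h mean of 13.5 TPM.

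HOXA5 and HOXB7 rose with overlapping libraries. HOXA5, a cervical level gene of another cluster, had 2.71, 32.2 and 58.3 TPM in day 2, against 0, 0 and 9.74 TPM in day 1. The lowest day 2 value, 2.71 TPM, came from 42 h B1, and 3 day 1 libraries lay above it, 18 h A2 at 9.74 TPM, 24 h A2 at 4.16 TPM and 24 h A1 at 3.51 TPM. HOXB7 was lower in level, at 0 to 19.1 TPM in day 2 and 0 to 2.64 TPM in day 1 (log2 difference 2.15, SE 0.44). HOXB6, which lies between HOXB5 and HOXB7, had medians of 10.2 TPM in day 2 and 3.91 TPM in day 1 and did not pass (log2 difference 1.23, adjusted p = 0.202). HOXC5 had a median of 0 TPM in both. None of the 12 HOX genes of groups 10 to 13, which mark lumbar and sacral levels, reached the level needed for a test. Values below that level were not summed.

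The day 2 means of HOXB9, HOXB8 and HOXB5 are given by hour. In the test below of whether the day difference depends on the hour, none of the 5 genes passed (adjusted p of 0.186 or more, limma). Over 36, 42 and 48 h the means were 12.7, 40.5 and 39.1 TPM for HOXB9. Its 42 h B1 library had 66.2 TPM, against 28.4 TPM in A1 and 26.9 TPM in A2. For HOXB8 the means were 35.7, 115 and 103 TPM. HOXB5 had no such step, with 103, 121 and 112 TPM. At 60 to 72 h, which was not part of the test, HOXB9 averaged 407 ± 100.0 TPM (SD, 9 libraries) and HOXB8 205 ± 31.5 TPM, both above every day 2 library, whereas HOXB5 averaged 26.4 ± 12.5 TPM, below its whole day 2 range.

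**Figure D2:**
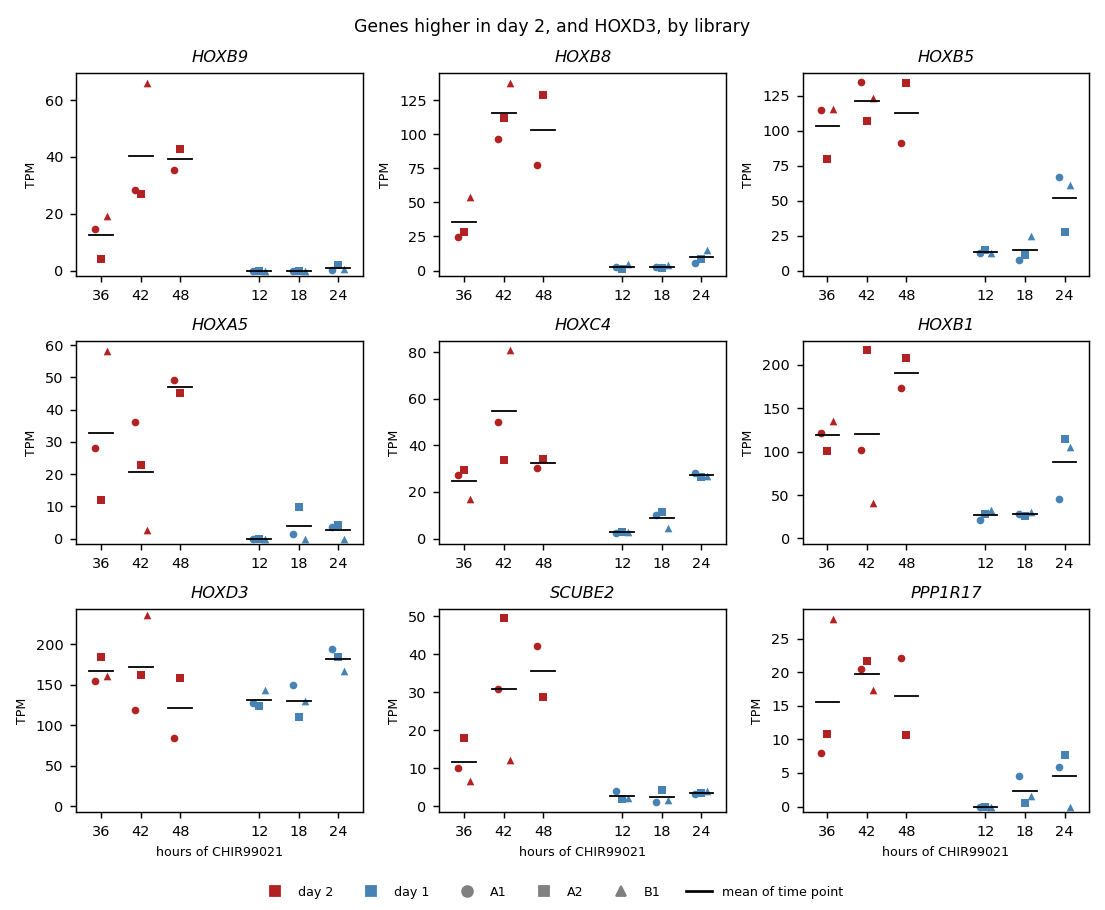
TPM of 9 genes in each of the 17 libraries (y axes) by hours of CHIR99021 (x axes), day 2 in red at the left and day 1 in blue at the right of each panel; circles, squares and triangles are replicates A1, A2 and B1, and bars are means of a time point. HOXB9, HOXB8, HOXB5, SCUBE2 and PPP1R17 libraries do not overlap between the days, while HOXD3 libraries do, at 84.1 to 235 TPM in day 2 and 110 to 194 TPM in day 1.

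HOX genes of groups 1 to 4, which pattern the hindbrain and upper neck, divided within the list. Of 12 tested, 3 rose and none fell (median log2 difference 0.52). HOXC4 had 17.1, 32.1 and 80.9 TPM in day 2, against 2.16, 10.3 and 28.0 TPM in day 1 (log2 difference 1.85, SE 0.31, adjusted p = 6.13e-05). Its 24 h libraries, with a mean of 27.1 TPM, lay inside the day 2 range, and its difference was 0.24 between 48 and 24 h, against 2.80 between 36 and 12 h. HOXB1 had 40.2, 128 and 217 TPM in day 2, against 20.8, 30.9 and 115 TPM in day 1 (log2 difference 1.68, adjusted p = 0.0248). Its call ended without 12 h A1, 24 h A1, 36 h B1, 42 h A2, 48 h A1 or 48 h A2, with an adjusted p of up to 0.0798, without 48 h A2. HOXB2 rose by less (log2 difference 0.92, adjusted p = 0.0144), and its call ended without 48 h A2 (adjusted p = 0.192). HOXB3 missed the threshold (0.65, adjusted p = 0.0515) and passed after quantile normalization (adjusted p = 0.0134) and median-ratio scaling (adjusted p = 0.0162).

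Several anterior HOX genes were high on both days without passing. HOXD4 had 130 to 272 TPM in day 2 and 148 to 204 TPM in day 1, with a log2 difference of 0.04 (SE 0.20). HOXD3 differed by 0.02 (SE 0.19) and HOXA3 by 0.04 (SE 0.25). HOXA4 did not pass either (1.00, SE 0.51), with 0 TPM in 42 h B1 and a highest value of 52.2 TPM in day 2, against 3.71 to 16.3 TPM in day 1. Of 9 HOX cofactor genes, whose TALE proteins bind DNA beside HOX proteins, none passed as deposited.

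A few of the secreted and patterning genes of the neural tube passed. SCUBE2 and SCUBE1 encode secreted proteins that help release Hedgehog from the cells that make it. SCUBE2 had 6.77, 23.4 and 49.5 TPM in day 2, against 1.25, 3.18 and 4.43 TPM in day 1 (log2 difference 2.59, SE 0.38, adjusted p = 6.88e-06). SCUBE1 had 7.15, 13.5 and 22.4 TPM, against 0, 4.05 and 6.03 TPM (log2 difference 1.77, adjusted p = 0.00520). Neither gene's libraries overlapped between the days. They were the 2 of 13 tested Hedgehog pathway genes that passed, and SCUBE3 did not (0.18, SE 0.17). The receptor PTCH1, itself a target of the pathway, did not (54.3 TPM in day 2 and 37.9 TPM in day 1 on average, adjusted p = 0.117), but it joined them under both scalings.

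Of 14 roof plate and dorsal genes, 2 rose and 1 fell. GDF7, a BMP-type ligand of the roof plate, had 0 to 24.7 TPM in day 2, against 0 to 6.27 TPM in day 1 (log2 difference 1.96, adjusted p = 0.0108, but 0.0580 without 48 h A2). OLIG3, which marks dorsal progenitors next to the roof plate, went the other way with 0, 9.38 and 50.4 TPM in day 2, against 2.84, 34.0 and 106 TPM in day 1 (log2 difference -2.57, SE 0.41, adjusted p = 2.56e-05). The days overlapped, and the level also differed between hours (adjusted p = 0.000118). Each of the 3 matched differences lay between -2.86 and -2.39. The lowest, -2.86 between 42 and 18 h, includes the 0 TPM of 42 h B1, against 13.3 TPM or more in 42 h A1 and A2. The similar size of the 3 differences therefore rests in part on that library. PAX3 and ZIC2, dorsal factors at 169 TPM or more in every library, differed by 0.08 (SE 0.12) and -0.13 (SE 0.13).

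Genes of neural progenitors rose in part. Of 16 tested, POU3F2, a POU factor of neural precursors, averaged 73.4 ± 13.5 TPM in day 2 and 43.8 ± 18.2 TPM in day 1 (SD, n = 8 and 9; adjusted p = 0.00327 by limma). PTPRZ1, a receptor phosphatase of radial glia, averaged 98.8 ± 24.6 TPM and 62.5 ± 13.7 TPM (adjusted p = 0.0108 by limma). The other 14 genes of that list did not pass. NEUROG2, which starts neurogenesis, was the 1 of 10 proneural factors that passed. It had 9.57, 17.5 and 43.0 TPM in day 2, against 0.620, 4.97 and 9.19 TPM in day 1, without overlap (log2 difference 1.74, SE 0.34, adjusted p = 0.00103). Of 22 neuronal genes only ONECUT2 passed (0.98, adjusted p = 0.0136, and 0.118 without 48 h A2). TUBB3, the neuronal tubulin, had medians of 148 TPM in day 2 and 164 TPM in day 1, with 20.0 TPM in 42 h B1. Without 42 h B1 the counts were 3 higher and 1 lower for progenitors (SOX1 and PAX6 added), 2 higher for proneural factors and 2 higher for neurons.

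Ligand and receptor of the SLIT and ROBO pair, which steer axons by repulsion, moved in opposite directions. SLIT1 had 11.5, 40.3 and 69.4 TPM in day 2, against 6.01, 12.4 and 24.7 TPM in day 1 (log2 difference 1.29, SE 0.20, adjusted p = 1.88e-05). ROBO2 had 32.9, 50.7 and 77.1 TPM, against 66.2, 90.3 and 120 TPM (log2 difference -0.86, SE 0.13, adjusted p = 6.16e-06). They were the only genes of the 21 on axon guidance to pass. The days overlapped for both.

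PPP1R17, an inhibitor of protein phosphatases, was among the 15 highest differences by the rule for named genes and had 7.97 to 28.0 TPM in day 2, against 0 to 7.63 TPM in day 1, without overlap (log2 difference 2.93, SE 0.45, adjusted p = 1.84e-05). Libraries were also separate for WNT7B, a WNT ligand, at 34.7 to 58.4 TPM in day 2 and 8.15 to 29.2 TPM in day 1, and for RHBDL3, a rhomboid family protein, at 33.5 to 71.7 TPM and 11.5 to 26.6 TPM. Both were named after their values were seen. In all, 10 of the 15305 genes (0.0653%) had every day 2 library above every day 1 library, and all 10 were among the 99 called. HOXB5, HOXB8, HOXB9, NEUROG2, PPP1R17, RHBDL3, SCUBE1, SCUBE2 and WNT7B were among them. In the other direction 45 genes (0.294%) had no overlap, of which 43 were called.

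Retinoic acid genes fell in part. CYP26A1, the cytochrome that clears retinoic acid and is itself switched on by it, had 281, 403 and 635 TPM in day 2, against 485, 828 and 1431 TPM in day 1. The days overlapped, and the level also differed between hours: at 36, 42 and 48 h it averaged 610 ± 22.1, 392 ± 21.8 and 282 ± 2.28 TPM, against 1327 ± 106, 809 ± 47.0 and 535 ± 56.7 TPM at 12, 18 and 24 h. Each of the 3 matched differences was between -1.12 and -0.91, and their mean was -1.02 (SE 0.10, adjusted p = 1.39e-09). The element through which retinoic acid receptors are known to act at this gene is a direct repeat with 5 bases between its copies. It is shown because these cells were in retinoic acid for their last 4 days, from RefSeq on GRCh38.p14, chr10:93073797-93073825, plus strand, 90 to 74 bases before the gene's start, with the match in capitals:
CYP26A1: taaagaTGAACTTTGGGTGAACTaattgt
The letters searched were AGTTCA, any 5 bases and AGTTCA again, on both strands of the 250 bases before each start, and 3 of 35116 windows (0.00854%) held them. Among genes with a window, they were in 1 of 237 that fell and 0 of 69 that rose, against 0.018% of all 11105 tested genes. The letters follow the element known at CYP26A1, so its match was to be found and the small share does not measure specificity. The match is of letters, not a measured binding.

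ALDH1A1, which makes retinoic acid from retinal, had 280, 496 and 1207 TPM in day 2, against 631, 959 and 1315 TPM in day 1 (log2 difference -0.82, adjusted p = 0.0128). Its difference was 0.11 between 36 and 12 h and -1.79 between 48 and 24 h, and the call ended without 48 h A2 (adjusted p = 0.0946). Of 9 retinoic acid enzymes these 2 passed. CYP1B1, a cytochrome that acts on steroids and on retinoids, fell without overlap to 16.6, 36.6 and 141 TPM in day 2, against 167, 267 and 437 TPM in day 1 (log2 difference -2.71, SE 0.26, adjusted p = 2.00e-10). Of 11 retinoid receptors and binding proteins, NRIP1 was the 1 lower gene, a call that ended without any 1 of 12 libraries. Its adjusted p was 0.147 without 42 h B1, where 2 genes of that list were higher, RXRG among them. CRABP2, the retinoic acid carrier, was high in both at 1628 to 3436 TPM in day 2 and 1433 to 2540 TPM in day 1, with a difference of 0.14 (SE 0.11).

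Few genes of the WNT, FGF, BMP and Notch pathways passed. None of 17 WNT feedback and beta-catenin target genes passed at any of 4 settings tried for the lists. AXIN2, the usual reporter of the pathway that CHIR99021 activates, had medians of 41.3 TPM in day 2 and 54.4 TPM in day 1 (log2 difference -0.27, SE 0.18). RNA was read 4 days after CHIR99021 ended, so the levels of these genes do not give the WNT response during the exposure. The secreted WNT antagonist SFRP5 was the 1 of 9 such genes that passed, at 16.7 to 32.0 TPM in day 2 against 39.8 to 90.2 TPM in day 1, without overlap (adjusted p = 0.0152, and 0.0533 without 48 h A2). Of 15 FGF genes only FGFR2 rose, and of 15 BMP and TGF-beta genes only GREM1 fell. The call of FGFR2 ended without any 1 of 9 libraries and that of GREM1 without any 1 of 10, among them 42 h B1 (adjusted p = 0.108 and 0.126). None of 16 Notch genes passed, except NRARP under both scalings. None of the 7 forebrain and midbrain genes and of the 3 ventral neural tube genes passed, and 1 of 8 genes of the tail bud list did, CYP26A1 itself.

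Several of the genes that fell most are known from transporting epithelia. A list of apical transport and brush border genes was drawn up after their values were seen, so its count is a description and not independent evidence. Of its 27 tested genes 15 fell and none rose, with a median log2 difference of -1.12, and 16 fell without 42 h B1. PDZK1, a scaffold of apical transporters in kidney and gut, had 0, 0 and 1.88 TPM in day 2, against 4.83, 24.8 and 57.2 TPM in day 1, without overlap (log2 difference -3.91, SE 0.37, adjusted p = 2.00e-10). VIL1, the actin bundler of microvilli, had 0 to 0.720 TPM in day 2, against 2.12 to 13.2 TPM in day 1 (log2 difference -2.86, SE 0.27). SLC7A7, an exporter of cationic amino acids, had 0 to 3.90 TPM in day 2, against 3.46 to 31.0 TPM in day 1. The endocytic receptor LRP2, also made by neuroepithelium, was far higher in level and fell to a median of 70.0 TPM in day 2, against 156 TPM in day 1 (log2 difference -1.15, SE 0.12), without overlap. DPP4, an apical peptidase, had 7.94 to 53.7 TPM, against 56.4 to 128 TPM, also without overlap. AQP1, MME, CUBN and ANPEP were among the 12 that did not pass. Without 42 h B1 AMN and SLC7A9 no longer passed, and CUBN, GGT1 and SLC4A4 passed as lower.

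Of the 16 genes of the endoderm and liver list 2 fell, and APOA1, APOB, AFP and TTR were among those that did not pass. BHMT, LIPC, GPX3, SLC27A2 and HPN are not on that list and are given for the size of their differences. HNF4A, a master factor of liver, gut and kidney tubule, had 0, 0.555 and 3.02 TPM in day 2, against 0, 17.1 and 24.8 TPM in day 1 (log2 difference -2.56, SE 0.48, adjusted p = 0.000454). BHMT, which remethylates homocysteine in liver and kidney, had 4.34, 16.5 and 36.0 TPM, against 49.1, 185 and 233 TPM, without overlap (log2 difference -3.02, SE 0.27, adjusted p = 2.73e-11). LIPC, the hepatic lipase, had 0, 6.78 and 20.8 TPM, against 15.4, 44.7 and 54.1 TPM (log2 difference -2.76, SE 0.50). The secreted peroxidase GPX3 had 17.3, 40.1 and 54.4 TPM, against 83.4, 379 and 595 TPM, without overlap (log2 difference -2.89, SE 0.23, adjusted p = 1.55e-12). SLC27A2 and HPN, a fatty acid transporter and a membrane protease of hepatocytes, fell by 2.73 and 2.88. The HNF4 motif was searched in the same windows, and the match in PDZK1, the transport scaffold described before, is shown for orientation, from RefSeq on GRCh38.p14, with the motif in capitals. PDZK1 has an HNF4 motif (CAAAGTCCA) at chr1:145707387-145707415, minus strand, 37 to 29 bases before its start:
PDZK1: aatctttgttCAAAGTCCAgtgagttgca
The HNF4 motif was in 2 of 237 genes that fell and in 1 of 69 that rose among those with a window, against 0.414% of all 11105 tested genes with one. By window it was in 0.325% of 35116. These counts describe letters and not binding.

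PDZK1, BHMT and GPX3 were lower at 24 than at 12 h within day 1 already, whereas ENPEP, an apical peptidase that also fell by day, had its highest day 1 values at 24 h (27.6 to 28.9 TPM, against 14.1 to 17.3 TPM at 12 h). At 12, 18 and 24 h GPX3 averaged 491 ± 61.9, 419 ± 160 and 91.1 ± 7.73 TPM, PDZK1 44.7, 21.4 and 5.03 TPM, and BHMT 209, 174 and 56.1 TPM. On day 2, at 36, 42 and 48 h, GPX3 averaged 38.0, 45.8 and 26.1 TPM and BHMT 24.0, 14.1 and 12.6 TPM. DPP4 went down with the hour on day 2 as well, with 51.2 to 53.7 TPM at 36 h and 7.94 and 12.9 TPM at 48 h. For GPX3 and PDZK1 the largest difference was between 36 and 12 h (-3.79 for GPX3, -5.39 for PDZK1) and the smallest between 48 and 24 h (-1.76 for GPX3, -2.59 for PDZK1).

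**Figure D3:**
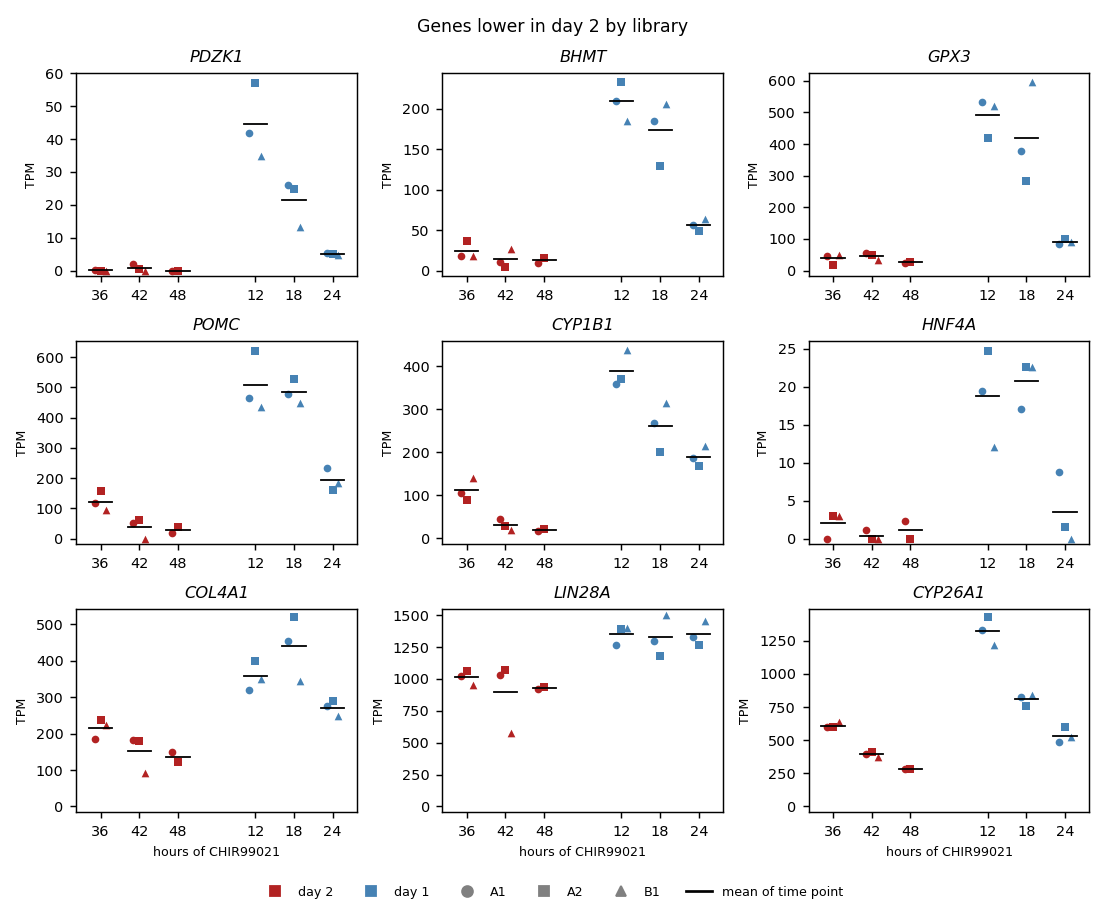
TPM of 9 genes that fell, in each of the 17 libraries (y axes) by hours of CHIR99021 (x axes), day 2 in red at the left and day 1 in blue at the right of each panel; marks are replicates and bars means of a time point. BHMT, GPX3, PDZK1, POMC, CYP1B1, COL4A1 and LIN28A libraries do not overlap between the days, and the day 1 means of GPX3 go down with the hour, to 91.1 TPM at 24 h.

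Other genes with large decreases have no single theme that was tested. POMC, the precursor of ACTH and melanocortins, had 0, 56.4 and 156 TPM in day 2, against 161, 449 and 621 TPM in day 1, without overlap (log2 difference -3.31, SE 0.47, adjusted p = 4.67e-06). The 0 was in 42 h B1. PGM5, a phosphoglucomutase relative at cell junctions, had 0.300 to 18.7 TPM, against 25.4 to 52.2 TPM. CYS1, a protein of the primary cilium, had 0 to 2.51 TPM, against 6.41 to 19.7 TPM. FLRT3, an adhesion protein, averaged 85.8 ± 44.2 TPM in day 2 and 266 ± 135 TPM in day 1 (log2 difference -1.70, SE 0.13, adjusted p = 1.02e-13), with near equal differences of -1.67, -1.83 and -1.61 at the 3 hours.

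Basement membrane genes fell while a cartilage-type collagen rose. Of 18 extracellular matrix genes, 4 fell and 1 rose. COL4A1, the main chain of basement membrane collagen, had 91.8, 182 and 238 TPM in day 2, against 249, 346 and 520 TPM in day 1, without overlap (log2 difference -1.10, SE 0.14, adjusted p = 3.83e-07). LAMB1, a laminin chain, had 99.6, 135 and 198 TPM, against 235, 275 and 325 TPM, also without overlap (log2 difference -1.05, SE 0.14). COL4A2 and SPARC were the other 2 genes that fell. COL4A2 lost its call without 18 h A2, 24 h A1 or 48 h A1 (adjusted p up to 0.0829), and SPARC did under median-ratio scaling and without 42 h B1, where NID1, another basement membrane gene, passed as lower. COL2A1, a fibrillar collagen also made by notochord and neuroepithelium, had 104, 179 and 250 TPM in day 2, against 48.0, 56.3 and 121 TPM in day 1 (log2 difference 1.26, SE 0.17, adjusted p = 8.39e-07).

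Markers of other cell types that such cultures can hold were lower or did not pass, and none of these lists had a higher gene, except NGFR of the neural crest list after quantile normalization. Of all 15305 tested genes 0.647% were higher and 1.94% lower. A list of 8 to 16 genes with no higher gene, or with 1 lower gene, therefore says little about its cell type. In bulk RNA, fewer cells of a type and less RNA per cell cannot be told apart. Of 10 neural plate border and placode genes 3 fell. DLX5 was listed at 0 in all 8 day 2 libraries, against 0 to 57.0 TPM, with a median of 23.3 TPM, in day 1 (log2 difference -3.86, SE 0.35, adjusted p = 4.10e-11). DLX6, its neighbour, fell with it (-1.42, adjusted p = 0.0148, and 0.0514 without 18 h B1). TFAP2A, shared with the neural crest list, averaged 4.43 ± 2.69 TPM and 12.2 ± 4.75 TPM. The summed level of the tested genes of the placode list was 1.53 to 35.0 TPM in day 2 and 37.0 to 93.0 TPM in day 1, without overlap. The lowest sum, 1.53 TPM, was in 42 h B1. DLX5 alone had 17.2 to 57.0 TPM at 12 and 18 h, so the sums are not independent of its call. Of 12 neural crest genes 1 fell, TFAP2A, with sums of 83.1 to 140 TPM and 38.2 to 197 TPM and FOXD3 at 0 in all 17 libraries. Of 16 endoderm genes 2 fell, HNF4A among them, with sums of 100.0 to 150 TPM and 168 to 259 TPM. AFP was listed at 0 in all of day 2 and had a median of 0 TPM in day 1.

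Of 14 epithelial genes 2 fell. KRT8, a keratin of simple epithelia, had 150, 182 and 324 TPM in day 2, against 245, 358 and 626 TPM in day 1 (log2 difference -0.85, SE 0.16, adjusted p = 0.000538). EPCAM fell by 0.75, but its adjusted p was 0.0575 without 12 h A2, 0.0544 without 42 h B1 and 0.0845 without 48 h A2. The defining epithelial factor GRHL2 was listed at 0 in all of day 2 and had a median of 0.400 TPM in day 1. The list summed to 347 to 736 TPM in day 2 and 479 to 1270 TPM in day 1. Of 10 paraxial mesoderm genes 1 fell, FOXC1, with 0 to 1.34 TPM against 0 to 25.1 TPM (log2 difference -2.51, SE 0.39), and the sums were 34.4 to 89.3 TPM and 31.5 to 84.7 TPM. TWIST1 was at 0 in all 17 libraries. Of 11 smooth muscle genes 1 fell, TPM1, with sums of 1006 to 1774 TPM and 1293 to 2718 TPM, and none of 8 endothelial and blood genes passed, with sums of 9.62 to 29.9 TPM and 7.15 to 42.0 TPM. The part of these cell types in the other results was not tested.

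Among regulators of developmental timing, LIN28A, an RNA-binding protein that blocks let-7 maturation, had 575, 989 and 1073 TPM in day 2, against 1181, 1327 and 1500 TPM in day 1, without overlap (log2 difference -0.52, SE 0.12, adjusted p = 0.00415). The lowest value, 575 TPM, was in 42 h B1. LIN28B, its paralog, fell by 0.40, a call that held only without 12 h A2, 18 h A2, 24 h A2, 42 h A1 or 42 h A2. The other 10 of 12 pluripotency genes did not pass, but ZFP42 was lower without 42 h B1, where LIN28B was not, and after quantile normalization. DPPA4 had 524 TPM in 42 h B1 and 174 to 292 TPM in the other day 2 libraries, against 240 to 321 TPM in day 1.

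Metabolic and stress genes moved one by one. SLC2A3, the neuronal glucose transporter, had 439, 818 and 1322 TPM in day 2, against 964, 2094 and 2510 TPM in day 1 (log2 difference -1.26, SE 0.13, adjusted p = 4.29e-09), as the only 1 of 22 hypoxia and glycolysis genes that passed, where median-ratio scaling added SLC2A1 as higher. ENO1, a glycolytic enzyme, differed by 0.0026 (SE 0.10). PHGDH and PSAT1, which act in succession in serine synthesis, fell by 0.73 and 0.46 (adjusted p = 0.000401 and 0.000452). PHGDH had 113, 375 and 471 TPM in day 2, against 393, 549 and 768 TPM in day 1. They were the 2 of 17 genes of the amino acid and ER stress response that passed. HMOX1, which breaks down haem, averaged 17.9 ± 12.7 TPM in day 2 and 61.4 ± 30.8 TPM in day 1 (log2 difference -1.94, SE 0.33). Its days overlapped, with 16.9 to 41.4 TPM at 36 h and 16.6 to 39.8 TPM at 24 h. The level of HMOX1 also differed between hours (adjusted p = 0.0128, limma F-test). TXNRD1, thioredoxin reductase, had 165, 243 and 318 TPM, against 301, 371 and 414 TPM (log2 difference -0.70, SE 0.087, adjusted p = 1.74e-07). These were 2 of 14 genes of oxidative stress defence.

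Cholesterol synthesis genes were higher in part: HMGCS1, FDFT1 and INSIG1 of 16 tested, with a median log2 difference of 0.35. Without 42 h B1 2 were higher, after quantile normalization 6, and after median-ratio scaling 7. HMGCS1, an early enzyme of the pathway, had 484, 723 and 902 TPM in day 2, against 438, 524 and 616 TPM in day 1. Its difference was 0.80 between 36 and 12 h and -0.18 between 48 and 24 h. The call of INSIG1 ended without any 1 of 7 libraries, that of HMGCS1 of 10 and that of FDFT1 of 15, with adjusted p up to 0.164 for HMGCS1 without 48 h A2, 0.141 for FDFT1 without 48 h A1 and 0.145 for INSIG1 without 48 h A2.

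Lists without a single call were mitosis (20 genes), DNA replication (19), cytosolic ribosomal proteins (23), oxidative phosphorylation (21), the circadian clock (16), immediate early genes (17) and housekeeping genes (10). TOP2A, a mitosis gene, had medians of 478 TPM in day 2 and 423 TPM in day 1. The tubulin TUBA1A had the largest increase in TPM among called genes, with 1398, 1789 and 2785 TPM in day 2, against 989, 1207 and 1465 TPM in day 1 (log2 difference 0.62, SE 0.12, adjusted p = 0.000850). The highest value was in 42 h B1.

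**Figure D4:**
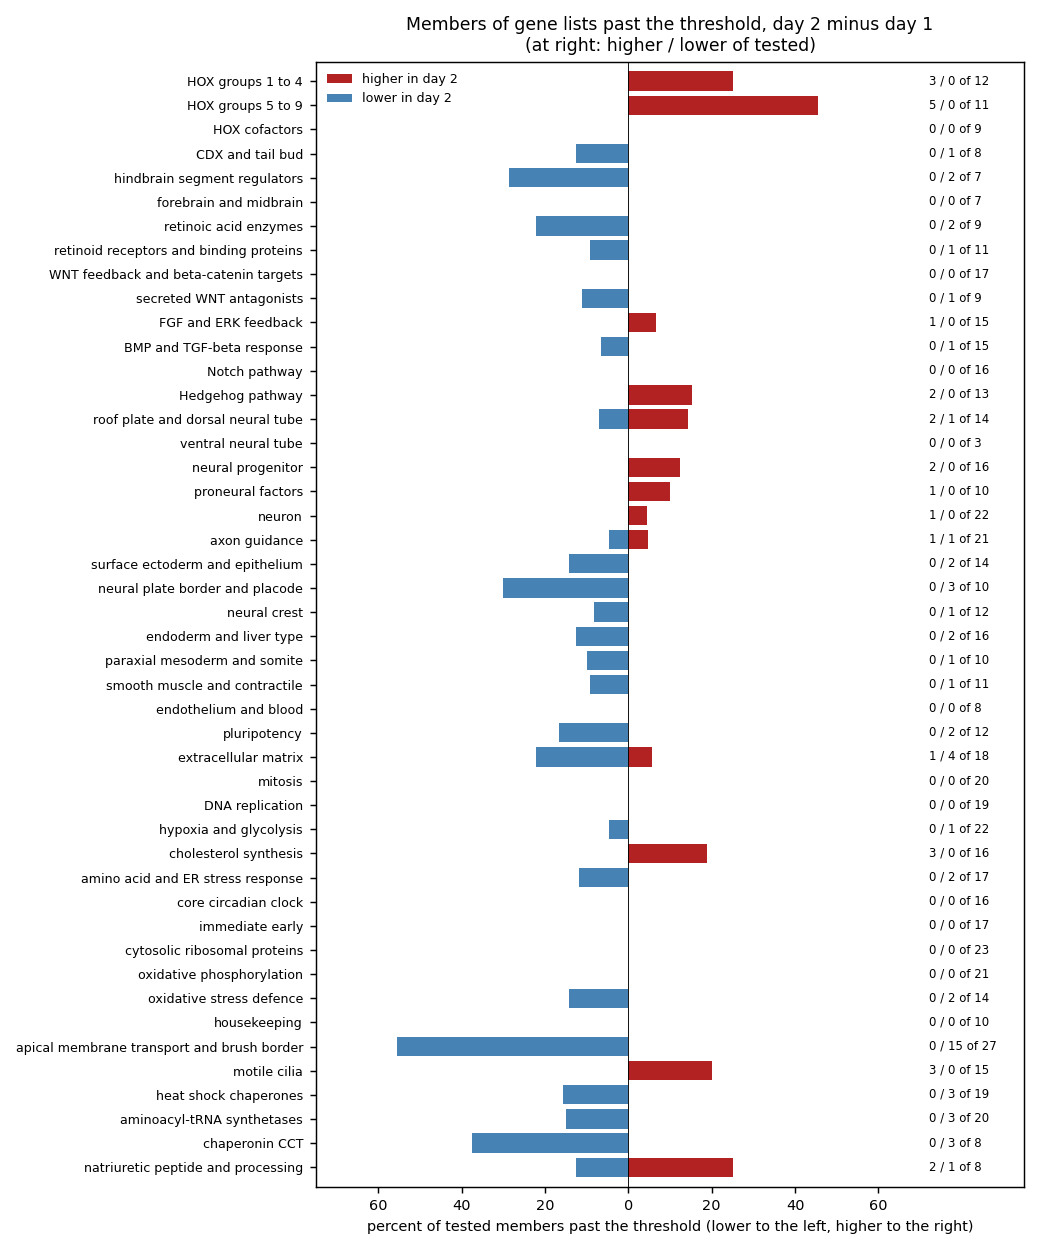
Bars give the percent of each list's tested genes that were higher (red, to the right) or lower (blue, to the left) in day 2, with the counts at the right edge. HOX groups 5 to 9 have 5 of 11 genes higher, apical transport 15 of 27 lower, and the last 6 lists were drawn up after values were seen.

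A further test asked whether the day difference itself depended on the hour. It compared the 3 matched differences and was passed by 19 of 15305 genes (0.124%), with 1594 genes at an unadjusted p under 0.05. GPC3, a heparan sulphate proteoglycan at the cell surface, averaged 271 ± 50.3, 358 ± 166 and 514 ± 108 TPM at 36, 42 and 48 h, against 931 ± 37.6, 642 ± 96.9 and 366 ± 29.1 TPM at 12, 18 and 24 h. The differences were -1.79, -0.97 and 0.47, so that day 2 was lower at the first hour and higher at the last (adjusted p = 0.00659). CTNNA2, a catenin of neurons, had the opposite order, with 24.3, 67.3 and 86.7 TPM on day 2 and 39.8, 27.9 and 29.2 TPM on day 1 (differences of -0.69, 1.29 and 1.57, adjusted p = 0.0181). IGF2, a growth factor, averaged 1304, 1144 and 953 TPM on day 2 and 616, 1194 and 1476 TPM on day 1 (differences of 1.07, -0.07 and -0.69, adjusted p = 0.0181). IGFBP5, which binds IGFs, had differences of 0.83, -0.48 and -0.99 (adjusted p = 0.00659).

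These calls lean on single libraries. Without 48 h A1, GPC3 had an adjusted p of 0.0532, EIF5 0.140, TMEM65 0.0712, MARCKS 0.102, U2SURP 0.112 and IGF2 0.0913, and CTNNA2 had 0.0615 without 12 h B1, whereas IGFBP5 passed without each of the 17. The count was 5 without 36 h B1, 7 without 12 h B1, 9 without 12 h A1, 10 without 24 h A2 and without 24 h B1, and 12 without 36 h A1 and without 36 h A2. It was 29 without 18 h B1, 64 without 48 h A2, 106 without 42 h A2 and 163 without 42 h A1. Without 42 h B1 it was 24.

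A separate test asked for differences between hours that both days shared. It has more power than the one before, so the counts of the 2 tests are not comparable. The means of 12 and 36 h, of 18 and 42 h and of 24 and 48 h were unequal for 333 genes (2.18%), and for 406 without 42 h B1. SFPQ, a splicing factor, had the smallest p among genes with at least 5 TPM. It averaged 1109 ± 98.0, 464 ± 147 and 167 ± 10.3 TPM at 36, 42 and 48 h, and 1170 ± 49.3, 507 ± 46.0 and 260 ± 18.7 TPM at 12, 18 and 24 h (adjusted p = 1.13e-19). The day difference of this gene did not pass (-0.29, SE 0.092), although it did without 42 h B1 (-0.38, adjusted p = 0.00455). HNRNPM, an RNA-binding protein, had the same order of hours. HSPA8, the constitutive HSC70 chaperone, averaged 2296, 1195 and 918 TPM on day 2 and 2773, 1547 and 1118 TPM on day 1 (hour adjusted p = 8.94e-14; day difference -0.31, SE 0.075). CTGF, a target of mechanical and YAP signals, ran upward with 350, 405 and 598 TPM on day 2 and 230, 529 and 802 TPM on day 1 (hour adjusted p = 3.88e-08). COL1A2 ran upward too.

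The count of genes by hour was 220 without 12 h A1, 209 without 12 h B1, 207 without 48 h A2, 603 without 42 h A2 and 679 without 42 h A1. The hour calls of SFPQ, HNRNPM, HSPA8, HSPH1, FLRT3, CTGF and COL1A2, and of CYP26A1 and SLC2A3, each held without each of the 17 libraries. The hour labels a length of exposure on both days, and since exposures 24 h apart share it, the order within a day and the hour of the medium change cannot be told apart here.

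**Figure D5:**
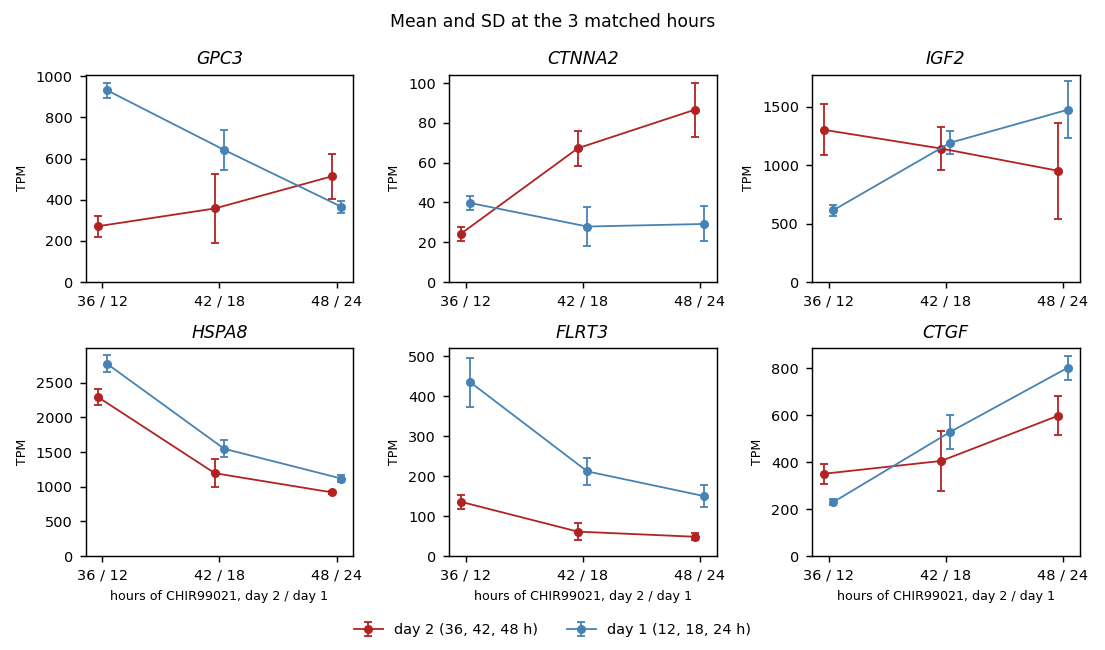
Mean TPM and SD (y axes) at the 3 matched hours (x axes, hours of CHIR99021 for day 2 / day 1), with day 2 in red and day 1 in blue; 42 h and every day 1 time point have 3 libraries, as has 36 h, and 48 h has 2. In the upper row the day difference changes with the hour, and in the lower row HSPA8 and FLRT3 go down with the hour on both days.

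HSPA8 had the smallest hour p of the chaperones listed, and its heat shock elements, the binding motif of heat shock factors, are shown from RefSeq on GRCh38.p14, minus strand, at chr11:123062346-123062374 (230 to 218 bases before the start) and chr11:123062171-123062199 (55 to 43 bases before it), with the match to GAA, any 2 bases, TTC, any 2 bases and GAA, on either strand, in capitals:
HSPA8 distal: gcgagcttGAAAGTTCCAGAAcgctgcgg
HSPA8 proximal: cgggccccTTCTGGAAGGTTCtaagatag
Among genes with a window, these letters were in 1 of 237 that fell by day and 0 of 69 that rose, against 0.486% of all 11105 tested genes. By window they were in 0.441%. A list of 19 heat shock chaperones, drawn up after values were seen, had 3 genes lower in day 2 (HSPA8, HSF2 and DNAJB1) and 8 that differed between hours. HSPA8 did not pass the day test under median-ratio scaling (-0.25, adjusted p = 0.175). HSF2, a heat shock factor, had 136 to 192 TPM in day 2 and 198 to 292 TPM in day 1, without overlap (log2 difference -0.55, SE 0.14). Of 8 chaperonin genes 3 were lower, but 1 under median-ratio scaling, and of 20 aminoacyl-tRNA synthetases 3 were lower, both lists also drawn up late.

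Some further genes of low level were higher. Of 15 motile cilia genes, listed after values were seen, 3 rose: RSPH1, RIBC2 and CCDC19, each with a day 2 mean of 5.03 to 6.70 TPM and a day 1 mean of 0.473 to 1.00 TPM. RSPH1 lost its call without 48 h A2 (adjusted p = 0.113). NPPA, the atrial natriuretic peptide, had 0, 7.45 and 59.8 TPM in day 2, against 0, 0 and 5.08 TPM in day 1 (log2 difference 2.66, SE 0.48). Of 8 genes of natriuretic peptides and their processing, also listed late, NPPA and CORIN, the protease that activates it, were higher (CORIN not without 42 h B1), and the receptor NPR1 was lower, with means of 2.90 TPM in day 2 and 12.2 TPM in day 1 (log2 difference -1.96, SE 0.38). GRIA4, an AMPA receptor subunit, had 2.51 to 12.3 TPM, against 0 to 3.49 TPM. CSN3, a casein, was listed at 0 in all of day 1, and its call held only without 36 h A2, 36 h B1, 42 h B1 or 48 h A1 (adjusted p up to 0.325 without 48 h A2).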

How the data were processed

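Poly(A) RNA from 100 ng of total RNA was amplified with 18 PCR cycles and read as single reads of 51 bp, per the labels' protocols. The authors deposited TPM of 19084 symbols, made, per the submitters' processing notes, with CASAVA 1.8.2, Bowtie 0.12.8, RSEM 1.2.3 and hg19. For the annotation, none is named in the sources used here. RSEM shares reads of near-identical genes by estimation. TPM of a library summed to 999997 to 1000001, so depth is unknown, no interval or detection limit was computed, and a 0 may be a failed estimate. No 2 of the 17 libraries were identical.

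From these, log2(TPM + 1) was fitted in R 4.3.3 with limma 3.58.1 (moderated tests with an intensity trend, 20 time-point means of all 59 libraries, 39 residual df) for the 15305 genes with at least 1 TPM in at least 3 libraries. The tests were: day 2 minus day 1, whether the 3 matched differences were unequal, and whether the 3 hours, averaged over both days, were unequal (F-tests with 2 df), each adjusted by Benjamini-Hochberg at 0.05 over all genes. The fit was checked on simulated data with 200 changed genes, 100 by a log2 of 1 and 100 by 2. The day test recovered 45% and 73% of them, with 9 false calls. For changes at 48 h only, the test of unequal matched differences recovered 2% and 26%. For changes at 24 and 48 h, the test of shared hours recovered 28% and 69%. A gene that did not pass may therefore still have changed. For each gene the simulated noise had the same size in every library, so none stood apart as 42 h B1 does. The shares recovered and the false calls may differ in the real data. Groups and replicates are the labels'. The fit has no block for the labels A1, A2 and B1.

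Genes named are the 15 highest and 15 lowest called differences of 5 TPM or more on average in a window and separate time-point means, HOX genes of at least 2 TPM at a time point, the 10 largest TPM differences each way, up to 4 called and 2 uncalled members per list, the 8 smallest p of each F-test, and markers of cell type and WNT response; others are said to be chosen after their values were seen. The groups, the 41 gene lists and the tests were chosen with earlier results of these data known, and 6 further lists were added after values were seen. Counts per list without 42 h B1 and under both scalings were also added after the data were seen. Alternatives varied the pseudocount, filter, scaling, libraries in the fit, block, weights and hour pairs, and left out replicates and libraries. Promoter windows are RefSeq's on GRCh38.p14, another build than hg19, matched by symbol for 11105 of the genes tested, so no coordinates of the hg19 files are given. Plots used matplotlib 3.10.9 (Python 3.11.15). Some genes that the rule names are not reported here.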

Additional observations from a re-analysis of the deposited data

Results flagged for a closer look

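In 88 groups of values tested for a library far from the rest of its window, 16 were found. The limits used give about 1 in 20 for independent normal values. These groups pool 3 time points, some hold zeros, and 42 h B1 is in every day 2 group. The 16 can therefore not be set against that share. Of the day 2 cases, 5 were values of the 42 h B1 library beside its 9924 genes at 1 TPM or more: POMC, HOXA4 and HOXD1 at a log2(TPM + 1) of 0, HOXB1 lowest at 5.37 and HOXB3 highest at 8.34. In day 2 the 48 h A1 library also had the highest share of TPM in its 100 top genes, 37.3%, and single libraries were highest for PDZK1 (1.53, 42 h A1) and HKDC1 (2.07, 36 h A2). In day 1 the 24 h B1 library had the fewest genes at 1 TPM or more, 11893, and the 18 h A2 library the highest share in its 100 top genes, 31.7%. Single day 1 libraries were highest on the log2(TPM + 1) scale for HOXB9 (1.51, 24 h A2), NPPA (2.60, 18 h B1) and RIBC2 (3.24, 18 h B1), and lowest for SCUBE1 (0, 18 h A2) and HKDC1 (0.23, 24 h A2).

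The day difference was unequal between the matched hours, by a test of that difference, for GPC3, EIF5, TMEM65 and IGFBP5 (adjusted p = 0.00659 each, limma), MARCKS (0.0135), U2SURP (0.0159), CTNNA2 and IGF2 (0.0181 each), DBX1 (0.0426) and DLX5 (0.0482). DBX1, a progenitor factor of the intermediate neural tube, had differences of 2.92 between 36 and 12 h, -1.24 between 42 and 18 h and -0.86 between 48 and 24 h, and DLX5 had -5.62, -4.51 and -1.45. The calls of DBX1 and DLX5 ended without any 1 of 9 and of 12 libraries.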

How the results depend on the processing

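The count of genes that differed between the days, 396, was 115 in a fit of 2 pooled groups, 115 from 36 minus 12 h alone, 157 from 48 minus 24 h alone, 133 with 42 minus 18 h left out, and 835 with library quality weights. It stayed between 313 and 474 under the other pseudocounts, filters and scalings. With only the 17 libraries in the fit it was 335, and 246 of the 396 genes were called again. With all libraries of a replicate label left out, or 1 of the 17, it ran from 147 to 616. The count for the day difference by hour, 19, was 31 with a pseudocount of 5 TPM, 9 under median-ratio scaling and 189 with quality weights. With only the 17 libraries in the fit it was 6, and 1 of the 19 genes was called again. Without 48 h A1 it was 17, with 3 of the 19 among them. On leaving out replicates or libraries it ran from 0, without replicate A2, to 163. With all libraries 1594 genes had an unadjusted p under 0.05 in this test. The count for the hour shared by both days, 333, was 1131 with quality weights and ran from 45 to 679. The cause was not tested.

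Day differences changed sign for ALDH1A1 (0.11) and CTNNA2 (-0.69) at 36 minus 12 h alone, and for HMGCS1 (-0.18), FDFT1 (-0.16), INSIG1 (-0.061) and GPC3 (0.47) at 48 minus 24 h alone. Of 82 named genes that passed, 54 passed without each of the 17 libraries, 8 lost the call without 42 h B1 and 77 kept direction and call under both scalings. With a replicate block the counts were 408 (105 higher, 303 lower, 386 of the 396 among them), 18 and 318. Same-labelled libraries of matched hours correlated in their deviations at -0.026 to 0.043 over 8 pairs, and 4 of 8 libraries correlated best with their own label. Depth is unknown, so what it limits was not measured.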
